A study of Mus musculus and Sus scrofa with 18 samples.

Results

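The 43 genes described here are interferon-stimulated antiviral genes, followed in the striatum of 9 mice. They were chosen by symbol from what is known of the interferon response, with earlier results of these data known. Each symbol matched 1 Ensembl gene of the deposited mouse counts, and together they are 43 of the 55357 genes counted. The study delivered CasRx, an RNA-cutting CRISPR/Cas13d nuclease, in AAV9 to lower HTT transcripts in HD 140Q-KI mice, heterozygous animals in which human HTT exon 1 and its expanded CAG repeat replace exon 1 of the mouse Htt gene. WT mice received AAV-Ctrl gRNA, untreated HD 140Q-KI mice AAV-CasRx/Ctrl gRNA and treated HD 140Q-KI mice AAV-CasRx/HTT gRNAs, with 3 mice in each group. All 9 were injected into the striatum at 6 months of age and were taken 1.5 months later, so every group carries AAV9 and a gRNA vector, whereas CasRx, driven by the broadly active CAG promoter, was given only to the HD 140Q-KI mice. In a comparison with WT, effects of the knocked-in exon and of CasRx cannot be told apart.

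Interferons are secreted proteins that warn neighbouring cells of an infection. Type I interferons bind the receptor IFNAR1/IFNAR2, the kinases JAK1 and TYK2 pass the signal on by phosphorylation, and STAT2 acts with IRF9 in a complex that binds the interferon-stimulated response element (ISRE) of many genes. The products cut or bind foreign RNA, block viral entry and budding, tag proteins with ISG15 and keep the response going or end it. In brain, microglia and astrocytes respond strongly, and neurons respond as well.

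Total counts ran from 27184356 to 32102121 per library. Htt (ENSMUSG00000029104, chromosome 5), the targeted gene, had 189, 191 and 181 CPM (counts scaled to a common library size) in WT mice 1 to 3, 145, 140 and 150 in untreated mice 1 to 3, and 140, 131 and 136 in treated mice 1 to 3, and these 3′ counts hold both alleles. Y-linked genes were counted in the 3 WT mice and in untreated mouse 1 and had no count in the other 5, so the presence of Y-linked counts also moves with the groups. Both HD mice numbered 3 stood apart from the other HD mice for the 43 genes, as given below. The 43 genes had 527 to 14568 counts each over the 9 libraries, and all 43 were among the 19463 genes kept by the filter on low counts. Of the 43, 34 had at least 10 counts in each WT library, and the other 9 passed through their counts in HD mice.

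Promoter sequence was read for the members because the ISRE is the feature that the interferon response is known to act on. RefSeq windows (GRCm38.p6, 250 bases before to 50 after the annotated start) were at hand for 32 of the 43 genes, in 37 windows. There was none for Ifi204, Ifi27, Ifi27l2a, Mx1, Mx2, Oas1b, Oas2, Parp14, Parp9, Rtp4 and Usp18. The core of the ISRE, searched as GAAANNGAAA on both strands, stood in the windows of 15 of the 32 genes (46.9%), against 1079 of 27025 genes with a window (3.99%). By window it was 17 of 37 (45.9%) against 1131 of 32851 (3.44%), where the same copy of Slfn8 counts in both of its overlapping windows. The gamma-activated site, searched as TTCNNNGAA on both strands, was in 5 of the 32 genes (15.6%) against 9.55% of all genes. The Bst2 and Ifitm3 matches to it each overlap ISRE letters of the same gene by 3 bases. Below are the 200 bases just before the start of 6 members, shown because they carry the core 1, 2 or 3 times and differ in how clearly the gene's counts separated the groups. Capitals mark the ISRE core on either strand, and all are written 5′ to 3′ along the strand of the gene.
Isg15 (chr4:156200819-156201018, minus strand): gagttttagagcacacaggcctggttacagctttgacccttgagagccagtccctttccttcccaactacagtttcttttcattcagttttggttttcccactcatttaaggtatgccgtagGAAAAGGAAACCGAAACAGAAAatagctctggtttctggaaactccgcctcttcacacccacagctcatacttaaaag
Ifit1 (chr19:34640689-34640888, plus strand): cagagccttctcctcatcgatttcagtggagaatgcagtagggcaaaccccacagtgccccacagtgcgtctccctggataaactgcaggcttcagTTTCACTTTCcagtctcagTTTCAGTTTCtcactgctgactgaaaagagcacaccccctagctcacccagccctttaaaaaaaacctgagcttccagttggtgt
Ifit3 (chr19:34583329-34583528, plus strand): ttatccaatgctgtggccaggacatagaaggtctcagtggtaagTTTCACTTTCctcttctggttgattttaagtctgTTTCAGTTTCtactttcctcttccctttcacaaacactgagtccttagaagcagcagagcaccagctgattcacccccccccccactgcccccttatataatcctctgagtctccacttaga
Bst2 (chr8:71537473-71537672, minus strand): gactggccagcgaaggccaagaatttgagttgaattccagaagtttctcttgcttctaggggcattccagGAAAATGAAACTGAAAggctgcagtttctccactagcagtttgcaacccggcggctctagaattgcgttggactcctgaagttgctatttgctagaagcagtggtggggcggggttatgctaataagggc
Rsad2 (chr12:26456453-26456652, minus strand): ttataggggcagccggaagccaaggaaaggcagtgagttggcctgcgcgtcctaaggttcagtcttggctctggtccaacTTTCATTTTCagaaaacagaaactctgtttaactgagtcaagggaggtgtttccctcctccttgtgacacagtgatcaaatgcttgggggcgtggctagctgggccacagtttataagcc
Ddx60 (chr8:61927887-61928086, plus strand): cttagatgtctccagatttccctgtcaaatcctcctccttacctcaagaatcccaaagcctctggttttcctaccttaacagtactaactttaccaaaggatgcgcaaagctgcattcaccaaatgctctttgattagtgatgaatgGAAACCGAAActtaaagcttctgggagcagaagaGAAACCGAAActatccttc
In Isg15 the core occurs 3 times in overlapping copies, beginning at bases −78, −72 and −66 before the start. In Bst2 there are 2 overlapping copies at −130 and −124. Ifit1 and Ifit3 carry 2 separate copies each on the opposite strand, Ddx60 2 separate copies on its own strand, and Rsad2 a single copy. The 15 genes with the core and the 17 without it had median log2 fold changes of 3.19 and 2.34 in untreated against WT mice, with ranges of 0.94 to 6.44 and 0.87 to 4.59, and 10 of the 15 and 14 of the 17 were called higher. The 11 genes without a window had a median of 2.97, and 10 of them were called. A match describes the letters in this window only.

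**Figure D1:**
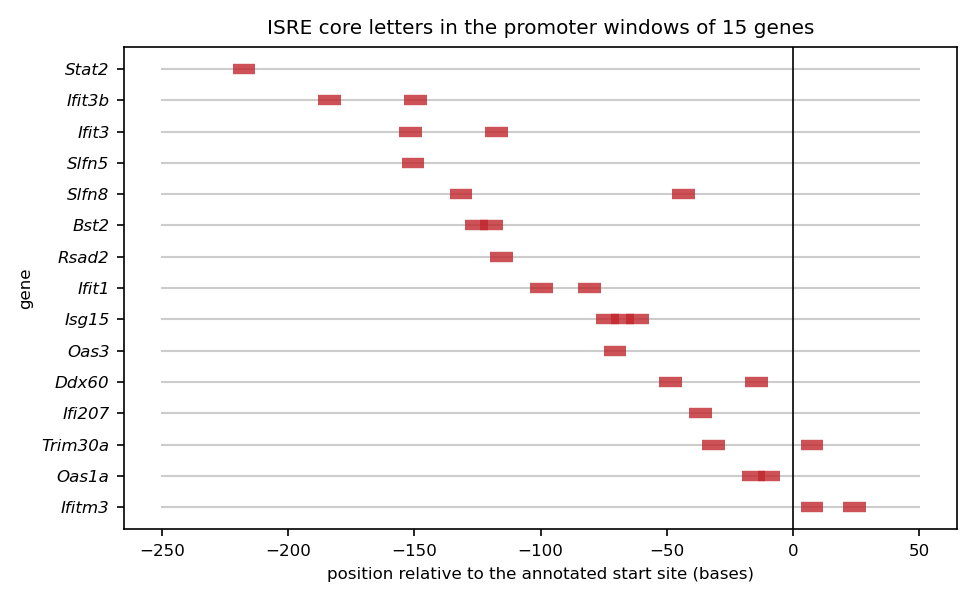
Position of the ISRE core (red bars, 10 bases each) in bases relative to the annotated start site (vertical line) for the 15 genes whose RefSeq window holds it, with the window as a grey line. Slfn8 and Trim30a have 2 windows each, drawn on a single line. The windows of Slfn8 overlap, and its 2 bars are the same copy placed from 2 annotated starts. The bars of Ifitm3 lie after the start.

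Every one of the 43 genes had a higher fitted level in untreated than in WT mice, and 34 of them rose with an adjusted p under 0.05. Adjusted p-values are those of edgeR's quasi-likelihood test after Benjamini-Hochberg adjustment over all 19463 genes tested. Of all genes tested, 4.58% were higher by the same rule. Because the 43 genes were chosen with earlier results of these data known, the shares given here describe the list and do not test it. The 9 genes that passed the filter through their counts in HD mice are all among the called genes, and of the other 34 genes 25 were called. In a fit of the genes with at least 10 counts in every library, 26 of these 34 were called, against 5.12% of all genes in that fit. Over all genes 892 of the 2080 called were higher (42.9%), which became 1147 of 2069 (55.4%) when libraries were scaled by total counts alone. The median log2 fold change was 2.83 over the 43 genes and 0.02 over all genes tested. By an unadjusted P under 0.05 with at least a 2-fold rise, the count was 41 of 43 against 5.57% of all genes. For 41 of 43 the lowest untreated mouse was above the highest WT mouse, against 15% of all genes. The exceptions were Ifi35 and Slfn5. In bulk tissue, more cells of a responding type and more RNA per cell cannot be told apart.

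The 9 genes that did not pass in untreated mice were Bst2, Cmpk2, Ifi35, Ifitm3, Irf9, Isg15, Parp9, Slfn5 and Stat2, with adjusted p-values from 0.0506 to 0.181. The count of 34 moved with the library left out. It was 13, 1 and 3 without WT mouse 1, 2 or 3, against 5.92%, 1.07% and 2.76% of all genes called higher. The medians over the 43 genes were 2.77, 2.88 and 2.76. Without untreated mouse 1, 2 or 3 the count was 37, 26 and 12, against 4.09%, 2.2% and 1.84%, with medians of 3.22, 3.12 and 1.73. Without treated mouse 1, 2 or 3 it was 27, 18 and 36, against 2.36%, 2.32% and 2.7%, with medians of 2.82, 2.83 and 2.82. With Y-linked counts as a covariate none of the 43 passed, where 0.17% of all genes were called higher. In that fit 16 of the 43 had an unadjusted P under 0.05, against 15.8% of all genes, and the median log2 fold change was 1.38. Untreated mouse 1, the HD mouse with Y-linked counts, was above each WT mouse in 41 of the 43 genes, against 30.1% of all genes, and its fitted median over the 43 genes against the WT mice was 1.39.

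Treated mice were also above WT in all 43 genes, but only 5 rose with an adjusted p under 0.05, against 0.904% of all genes that were higher by this rule. Over all genes 176 of the 718 called were higher (24.5%), or 212 of 548 (38.7%) when scaled by total counts alone. The 5 genes were Ddx60, Usp18, Ifi204, Mx1 and Rtp4, and all 5 had risen in untreated mice too. Ddx60, Ifi204 and Mx1 are among the 9 genes that passed the filter through HD mice, so that 2 of the other 34 genes were called, or 4 of these 34 in a fit of the genes with at least 10 counts in every library, against 1.05% of all genes in that fit. A further 22 genes had adjusted p-values between 0.05 and 0.1. An unadjusted P under 0.05 was reached by 41, against 21.4% of all genes in either direction. The median log2 fold change was 2.39 over the 43 genes and 0.00 over all genes tested. By an unadjusted P under 0.05 with at least a 2-fold rise the count was 39 of 43, against 3.84% of all genes. In 42 of 43 genes, all but Slfn5, the 3 treated mice were above the 3 WT mice, against 13.4% of all genes. The count of 5 moved with each library left out. It was 1, 0 and 1 without WT mouse 1, 2 or 3, against 1.99%, 0.19% and 1.03% of all genes called higher. It was 10, 3 and 37 without untreated mouse 1, 2 or 3, against 1.17%, 0.447% and 3.45%. Without treated mouse 1, 2 or 3 it was 1, 0 and 0, against 0.146%, 0.0803% and 0.166%. The untreated mice enter the count of 5 through the spread that all 9 libraries share. A fit of the treated and WT mice alone called 33, against 2.78% of all genes called higher. DESeq2 called 31, against 4.44%. With Y-linked counts as a covariate the count was 0, against 0.00514% of all genes, with 1 gene at an unadjusted P under 0.05, against 6.97% of all genes, and the median log2 fold change was 0.68. No treated mouse had Y-linked counts, so the treated group has no value within the mice that do. All 3 WT mice had them, so the covariate fit links treated mice to WT only through untreated mouse 1, the HD mouse with Y-linked counts. Its values for treated mice therefore depend on that mouse.

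**Figure D2:**
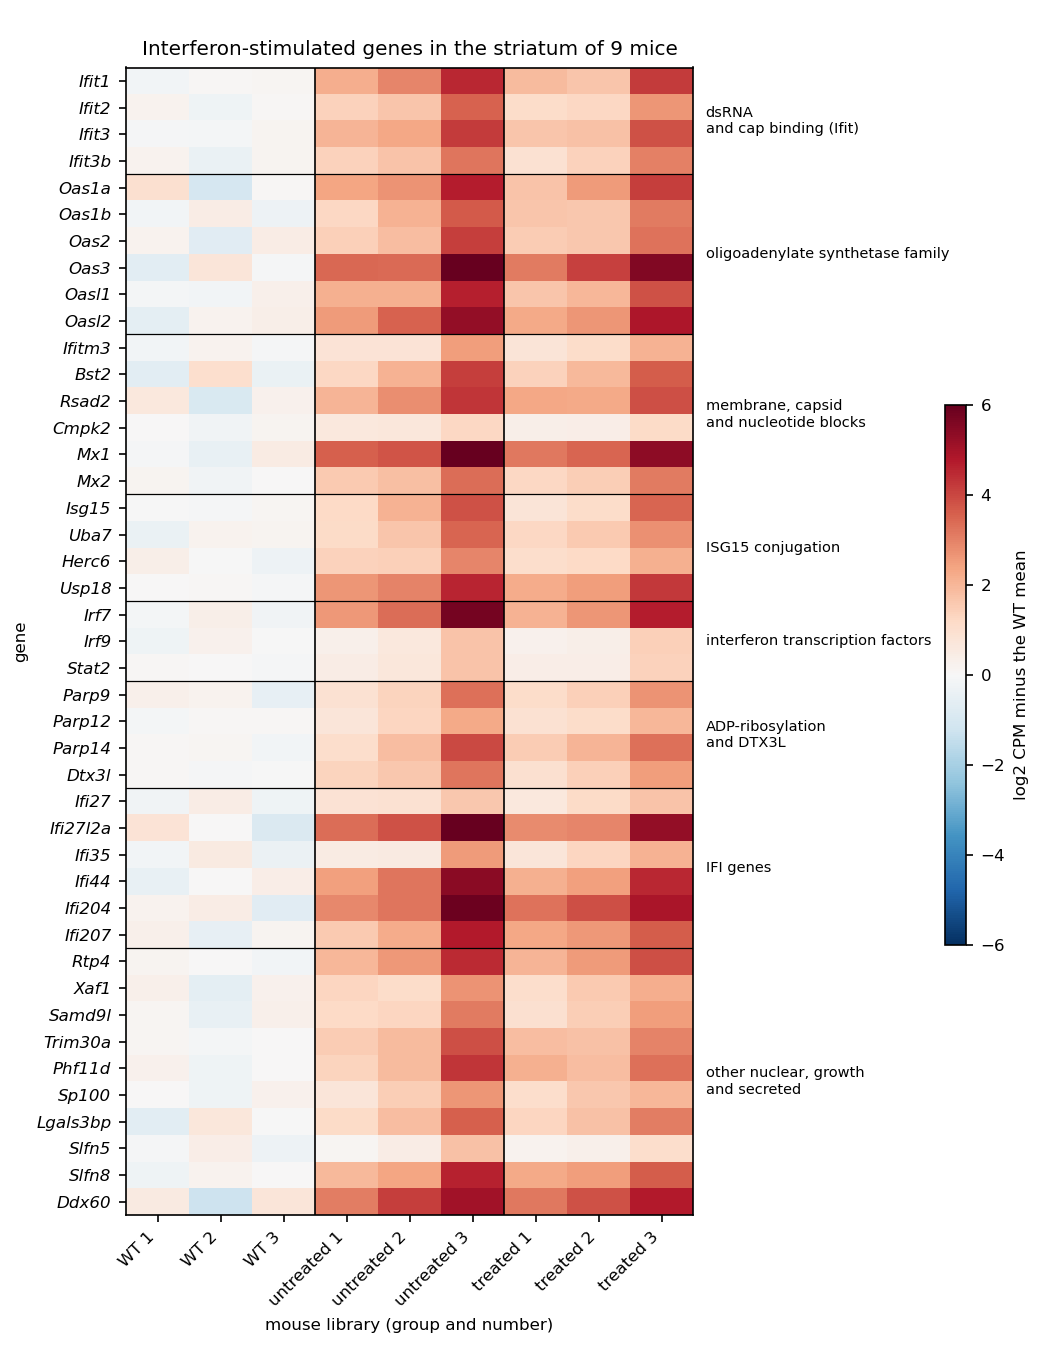
Log2 CPM of the 43 genes (rows, grouped by role) in the 9 mouse libraries (columns), each as the difference from the mean of the 3 WT mice. The 6 HD libraries are red in nearly every row, and untreated 3 and treated 3 are the darkest.

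The Ifit genes, of which Ifit1 encodes a protein that holds RNA lacking the cap modifications of host mRNA, lie side by side on chromosome 19. All 4 rose in untreated mice. Ifit3 (ENSMUSG00000074896, chromosome 19) had 6.99, 6.72 and 8.18 CPM in WT mice 1 to 3, 29.6, 36.1 and 134 CPM in untreated mice 1 to 3 and 22.9, 24.5 and 102 CPM in treated mice 1 to 3. The 6 HD mice were all above the WT mice, and the mouse numbered 3 was the highest of each HD group. The log2 fold change against WT was 3.19 (SE 0.74, adjusted p = 0.0283) in untreated and 2.77 (SE 0.73, adjusted p = 0.0701) in treated mice. Ifit2 (ENSMUSG00000045932, chromosome 19), whose product binds Ifit3 and acts on AU-rich RNA, had 8.31, 5.98 and 7.68 CPM in WT, 18.8, 22.97 and 84.5 CPM in untreated and 15.7, 17.5 and 45.4 CPM in treated mice, again without overlap of HD and WT. Its log2 fold change was 2.52 (SE 0.62, adjusted p = 0.0333) in untreated and 1.84 (SE 0.61, adjusted p = 0.122) in treated mice. Ifit1 and Ifit3b had log2 fold changes of 3.57 and 2.32 in untreated mice and of 3.11 and 2.05 in treated mice. Ifit3 and Ifit3b are near-identical copies among which reads could have been divided, so their separate levels are uncertain.

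The oligoadenylate synthetase family includes sensors of double-stranded RNA, and its active enzymes, which are not all of its members, make oligoadenylates in response. All 6 members, clustered on chromosome 5, rose in untreated mice, with a median log2 fold change of 3.66. In Oasl2 (ENSMUSG00000029561, chromosome 5), which couples a synthetase domain to ubiquitin-like domains, the WT mice had 2.15, 3.82 and 4.12 CPM, the untreated mice 19.1, 38.6 and 128 CPM and the treated mice 15.9, 20.8 and 95.7 CPM. The lowest HD mouse was well above the highest WT mouse, and the log2 fold change was 4.20 (SE 0.91, adjusted p = 0.0222) in untreated and 3.71 (SE 0.89, adjusted p = 0.0539) in treated mice. Oas2 (ENSMUSG00000032690, chromosome 5) had 1.47, 0.771 and 1.76 CPM in WT, 3.51, 4.77 and 23.2 CPM in untreated and 3.77, 4.08 and 12.5 CPM in treated mice, with log2 fold changes of 2.97 (SE 0.80, adjusted p = 0.0443) and 2.34 (SE 0.79, adjusted p = 0.128). The HD groups overlapped each other and not the WT group. Oas3 (ENSMUSG00000032661, chromosome 5), which prefers long double-stranded RNA, was almost uncounted in WT mice, with 0, 3 and 1 counts, and its summed counts were 398 in untreated and 236 in treated mice against 4 in WT. Scaled for depth, these sums gave ratios of 95.1 (95% counting interval 36.8 to 351) in untreated and 52.6 (20.3 to 195) in treated mice, intervals that cover counting error alone and not the spread between mice. Oas1a, Oas1b and Oasl1 had log2 fold changes of 3.54, 2.79 and 3.78 in untreated mice. In treated mice the 6 members lay between 2.34 and 5.61, and none passed the adjusted threshold. Oas1a and Oas1b are close copies, and their division of reads is uncertain.

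Among the genes that act on membranes, capsids and nucleotides, 3 of 6 rose in untreated mice (Mx1, Mx2 and Rsad2) and 1 of 6 in treated mice (Mx1). Bst2 (ENSMUSG00000046718, chromosome 8), the tetherin that holds budding virions at the cell surface, had 1.93, 6.203 and 2.29 CPM in WT, 7.16, 13.2 and 53.9 CPM in untreated and 7.97, 11.96 and 38.02 CPM in treated mice. WT mouse 2 came close to untreated mouse 1, and the log2 fold change was 2.83 (SE 0.87, adjusted p = 0.067) in untreated and 2.48 (SE 0.86, adjusted p = 0.1395) in treated mice. Cmpk2 (ENSMUSG00000020638, chromosome 12), a nucleotide kinase of mitochondria, had 21.1, 17.8 and 23.2 CPM in WT, 32.03, 32.8 and 48.5 CPM in untreated and 26.3, 26.8 and 46.1 CPM in treated mice. The groups did not overlap with WT, but the differences were the smallest among the 43 genes in untreated mice, at 0.87 (SE 0.24, adjusted p = 0.0506), with 0.68 (SE 0.24, adjusted p = 0.149) in treated mice. Rsad2 (ENSMUSG00000020641, chromosome 12), its neighbour on chromosome 12 whose product viperin makes a chain-terminating nucleotide, had 1.74, 0.5505 and 1.33 CPM in WT, 4.74, 7.83 and 22.3 CPM in untreated and 5.64, 5.502 and 16.96 CPM in treated mice, and log2 fold changes of 3.26 (SE 0.71, adjusted p = 0.0229) and 2.95 (SE 0.71, adjusted p = 0.0533). Mx1 (ENSMUSG00000000386, chromosome 16), a dynamin-like GTPase that traps viral capsids, had 0.113, 0.0734 and 0.199 CPM in WT (3, 2 and 6 counts), 2.21, 2.55 and 14.8 CPM in untreated and 1.62, 2.04 and 7.69 CPM in treated mice, with log2 fold changes of 5.60 (SE 1.08, adjusted p = 0.01504) and 4.81 (SE 1.08, adjusted p = 0.0437). Its copy Mx2 stood at 2.55 and 2.26. Ifitm3, which stiffens endosomal membranes against viral fusion, had log2 fold changes of 1.63 (SE 0.49, adjusted p = 0.06302) and 1.44 (SE 0.49, adjusted p = 0.131).

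ISG15 is a ubiquitin-like protein that is joined to other proteins by the E1 enzyme Uba7 and the mouse ligase Herc6 and removed by Usp18 (ENSMUSG00000030107, chromosome 6), which also shuts the type I receptor. Uba7, Herc6 and Usp18 rose in untreated mice and Usp18 in treated mice. Herc6 (ENSMUSG00000029798, chromosome 6) had 9.48, 7.304 and 6.15 CPM in WT, 19.8, 20.6 and 57.7 CPM in untreated and 15.8, 17.3 and 33.2 CPM in treated mice. It gave the smallest unadjusted P of the 43 genes between the HD groups, and its log2 fold change against WT was 2.10 (SE 0.45, adjusted p = 0.0223) in untreated and 1.53 (SE 0.45, adjusted p = 0.0926) in treated mice. Uba7 (ENSMUSG00000032596, chromosome 9) had 3.55, 5.505 and 5.22 CPM in WT, 10.5, 15.1 and 53.5 CPM in untreated and 10.97, 14.1 and 31.5 CPM in treated mice, with log2 fold changes of 2.47 (SE 0.63, adjusted p = 0.0374) and 1.98 (SE 0.62, adjusted p = 0.107). In both genes every HD mouse was above every WT mouse. Usp18 had 0.944, 0.954 and 0.864 CPM in WT, 6.03, 7.66 and 23.6 CPM in untreated and 4.63, 5.502 and 18.4 CPM in treated mice, and its log2 fold change was 3.75 (SE 0.70, adjusted p = 0.0131) in untreated and 3.36 (SE 0.69, adjusted p = 0.03299) in treated mice. Isg15 (ENSMUSG00000035692, chromosome 4) itself had 1.85, 1.83 and 2.06 CPM in WT, 4.49, 8.26 and 27.9 CPM in untreated and 3.34, 4.25 and 22.5 CPM in treated mice. Its HD mice were all above WT, with mouse 3 far above mice 1 and 2 in both HD groups, and the log2 fold changes were 2.82 (SE 0.85, adjusted p = 0.0645) and 2.38 (SE 0.85, adjusted p = 0.146).

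Of the 3 transcription factors, Irf7 rose in untreated mice, and Stat2 and Irf9 did not pass the adjusted threshold. Stat2 (ENSMUSG00000040033, chromosome 10), the STAT of the type I complex, had 33.8, 31.8 and 29.9 CPM in WT, 43.9, 51.6 and 104 CPM in untreated and 41.7, 42.3 and 82.6 CPM in treated mice. Its log2 fold change was 1.06 (SE 0.35, adjusted p = 0.0797) in untreated and 0.80 (SE 0.35, adjusted p = 0.219) in treated mice. Irf9 (ENSMUSG00000002325, chromosome 14), the DNA-binding subunit, had 14.02, 20.04 and 16.4 CPM in WT, 20.7, 26.2 and 55.5 CPM in untreated and 20.1, 21.3 and 44.5 CPM in treated mice, where WT mouse 2 nearly reached untreated mouse 1 and treated mouse 1. Its log2 fold changes were 1.02 (SE 0.40, adjusted p = 0.129) and 0.77 (SE 0.40, adjusted p = 0.305). Irf7 (ENSMUSG00000025498, chromosome 7), which amplifies interferon-alpha transcription, had 1.36, 1.87 and 1.26 CPM in WT, 9.23, 15.8 and 83.4 CPM in untreated and 6.404, 9.52 and 40.99 CPM in treated mice. Its log2 fold change was 4.59 (SE 1.02, adjusted p = 0.0246) in untreated and 3.66 (SE 1.00, adjusted p = 0.0764) in treated mice. Untreated mouse 3 had the highest Irf7 level and treated mouse 3 the next.

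The ADP-ribosylation genes comprise Parp9 and its partner Dtx3l, a ubiquitin ligase, with the mono-ADP-ribosyltransferases Parp12 and Parp14. Parp12, Parp14 and Dtx3l rose in untreated mice, and none of the 4 passed in treated mice. Parp14 (ENSMUSG00000034422, chromosome 16) had 4.08, 4.22 and 3.56 CPM in WT, 8.24, 14.3 and 61.7 CPM in untreated and 11.3, 16.7 and 39.2 CPM in treated mice, with log2 fold changes of 2.83 (SE 0.74, adjusted p = 0.041) and 2.50 (SE 0.73, adjusted p = 0.0931). Parp12 (ENSMUSG00000038507, chromosome 6) had 9.33, 10.6 and 10.5 CPM in WT, 16.9, 24.6 and 49.4 CPM in untreated and 19.4, 21.6 and 40.8 CPM in treated mice, with log2 fold changes of 1.58 (SE 0.39, adjusted p = 0.0352) and 1.43 (SE 0.39, adjusted p = 0.0788). WT values of both genes were tight and every HD mouse was above them. Parp9 and Dtx3l had log2 fold changes of 2.23 and 2.34 in untreated mice, against 1.91 and 1.80 in treated mice.

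Among the genes named for interferon induction, 5 of 6 rose in untreated mice (all but Ifi35) and Ifi204 in treated mice. Ifi27 (ENSMUSG00000064215, chromosome 12), a small mitochondrial protein, had 20.2, 31.3 and 19.4 CPM in WT, 41.7, 44.2 and 71.96 CPM in untreated and 35.5, 50.6 and 74.9 CPM in treated mice. It was the 1 member whose fitted level was not lower in treated than in untreated mice, and its log2 fold change against WT was 1.15 (SE 0.31, adjusted p = 0.0445) in untreated and 1.18 (SE 0.31, adjusted p = 0.0697) in treated mice. Ifi27l2a (ENSMUSG00000079017, chromosome 12), its relative on the same chromosome, had 0.68, 0.367 and 0.166 CPM in WT, 4.21, 5.88 and 31.1 CPM in untreated and 2.91, 3.16 and 16.6 CPM in treated mice. The log2 fold change was 5.09 (SE 1.10, adjusted p = 0.0221) in untreated and 4.23 (SE 1.08, adjusted p = 0.0642) in treated mice, and the WT level rests on 18, 10 and 5 counts. Ifi204 (ENSMUSG00000073489, chromosome 1), a nuclear DNA-binding protein of the HIN-200 family, had 0.302, 0.367 and 0.133 CPM in WT, 2.25, 2.89 and 18.96 CPM in untreated and 3.003, 4.64 and 9.46 CPM in treated mice, with log2 fold changes of 4.90 (SE 0.98, adjusted p = 0.0165) and 4.41 (SE 0.97, adjusted p = 0.0405). Here treated mice 1 and 2 were above untreated mice 1 and 2. Ifi207, a near copy of Ifi204, and Ifi44 had log2 fold changes of 3.80 and 4.38 in untreated mice. Ifi35 (ENSMUSG00000010358, chromosome 11) had 2.68, 4.44 and 2.36 CPM in WT and 4.25, 4.4 and 18.1 CPM in untreated mice, so that WT mouse 2 was above untreated mice 1 and 2, and its log2 fold change was 1.499 (SE 0.60, adjusted p = 0.133).

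Of the remaining 10 genes, 9 rose in untreated mice (all but Slfn5), and Rtp4 and Ddx60 rose in treated mice. Lgals3bp (ENSMUSG00000033880, chromosome 11), a secreted glycoprotein that binds galectins, had 8.76, 22.02 and 13.3 CPM in WT, 30.7, 49.3 and 166 CPM in untreated and 33.5, 46.8 and 116 CPM in treated mice, with log2 fold changes of 2.48 (SE 0.69, adjusted p = 0.0495) and 2.15 (SE 0.68, adjusted p = 0.112). Xaf1 (ENSMUSG00000040483, chromosome 11), a partner of the apoptosis inhibitor XIAP, had 8.198, 4.404 and 7.98 CPM in WT, 16.4, 14.2 and 43.2 CPM in untreated and 13.8, 20.1 and 29.8 CPM in treated mice, with log2 fold changes of 1.84 (SE 0.46, adjusted p = 0.0354) and 1.63 (SE 0.46, adjusted p = 0.0833). Neither gene overlapped between HD and WT mice. Ddx60 (ENSMUSG00000037921, chromosome 8), an RNA helicase that helps RIG-I and the gene with the smallest adjusted p in both comparisons, had 0.68, 0.147 and 0.764 CPM in WT, 4.28, 8.9 and 16.6 CPM in untreated and 4.505, 7.08 and 13.9 CPM in treated mice, and its log2 fold change was 4.21 (SE 0.69, adjusted p = 0.00769) in untreated and 3.98 (SE 0.69, adjusted p = 0.0162) in treated mice. Rtp4 (ENSMUSG00000033355, chromosome 16), a chaperone-like protein that limits the response, had 1.47, 1.36 and 1.16 CPM in WT, 5.51, 8.26 and 30.5 CPM in untreated and 5.73, 8.24 and 20.2 CPM in treated mice, with log2 fold changes of 3.47 (SE 0.72, adjusted p = 0.01897) and 3.10 (SE 0.71, adjusted p = 0.0466). Samd9l, Trim30a, Phf11d, Sp100 and Slfn8 had log2 fold changes between 1.84 and 3.57 in untreated mice. Slfn5 (ENSMUSG00000054404, chromosome 11) had 7.48, 10.4 and 6.28 CPM in WT, 8.45, 10.8 and 27.04 CPM in untreated and 9.16, 9.75 and 16.6 CPM in treated mice. WT mouse 2 had more Slfn5 than untreated mouse 1 and treated mice 1 and 2, and its log2 fold changes were 0.94 (SE 0.43, adjusted p = 0.181) and 0.56 (SE 0.42, adjusted p = 0.491).

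**Figure D3:**
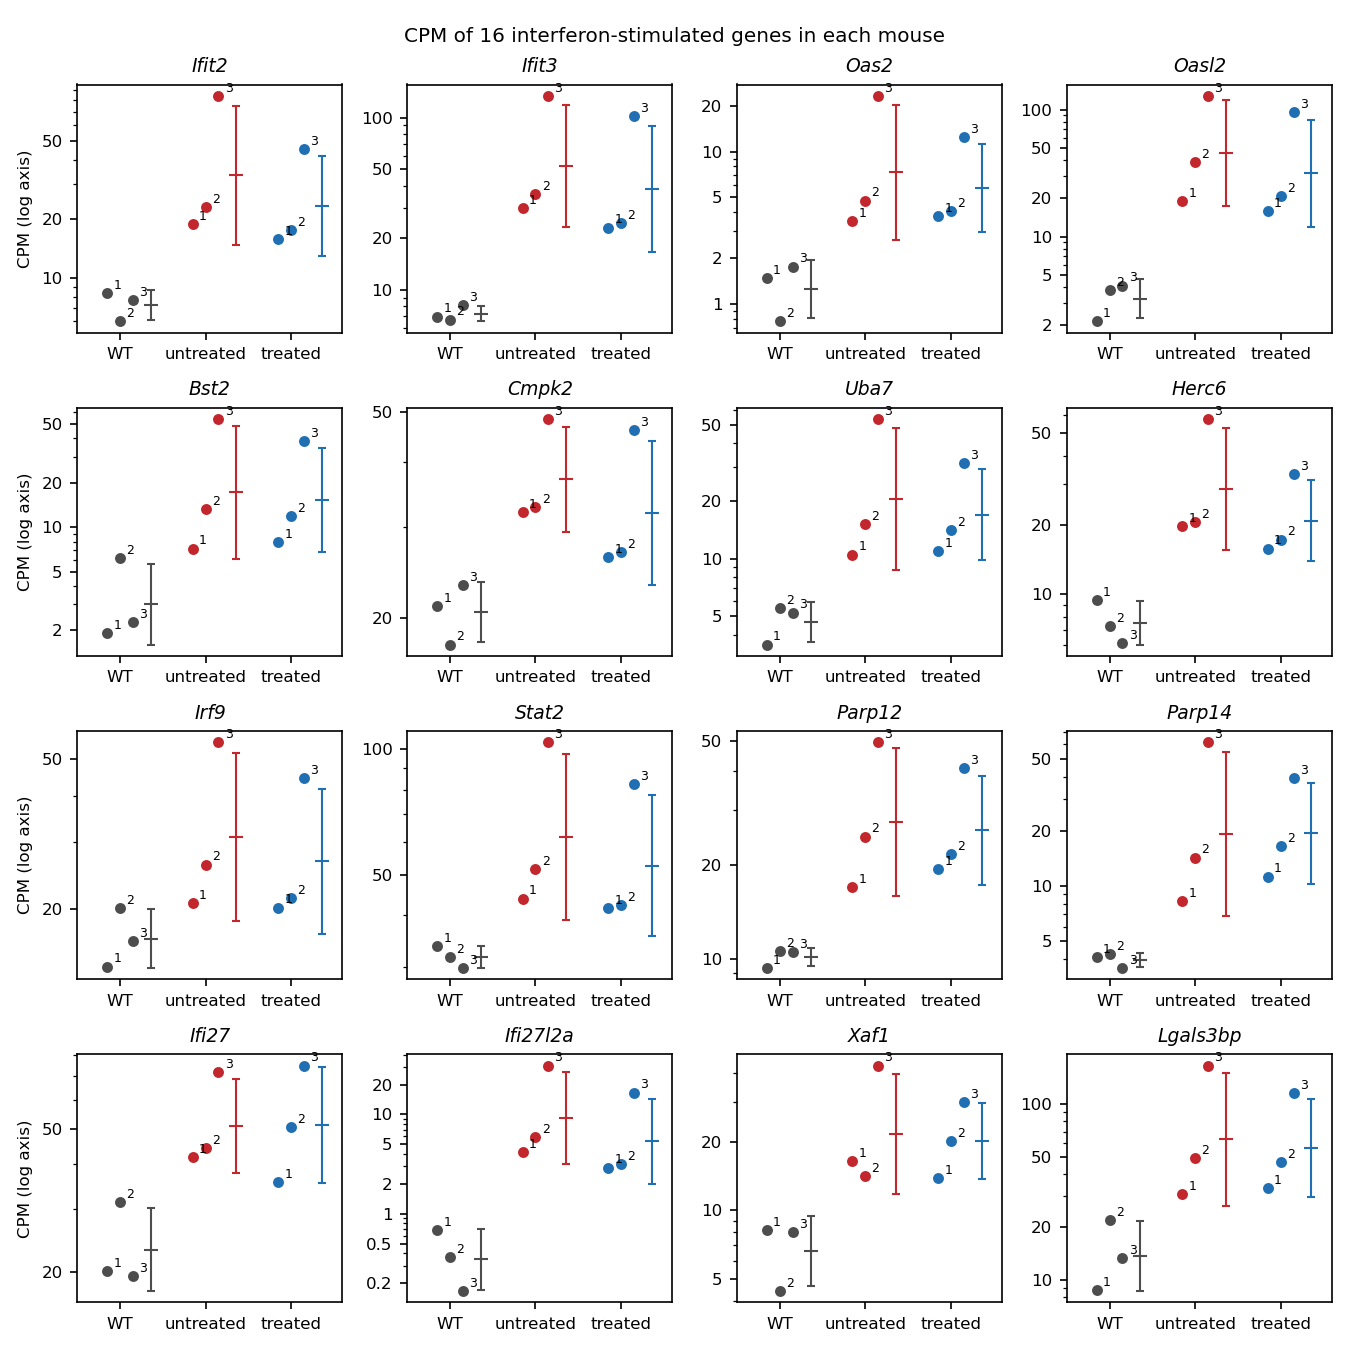
CPM (log axis) in each mouse (points, numbered as in the labels) of the 2 members with the highest mean CPM in each of 8 role lists, with the mean ± SD of log2 CPM beside each group of 3 mice. Every panel has its highest untreated and highest treated value in the mouse numbered 3, and the HD points lie above the WT points in all 16 panels.

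Treated and untreated mice, which differ in the gRNA given with CasRx, could not be separated for any of the 43 genes. No member passed the adjusted threshold of 0.05 with edgeR or with DESeq2, and none had an unadjusted P under 0.05, whereas over all genes tested 0% passed the adjusted threshold in edgeR, 0.247% in DESeq2, and 5.5% the unadjusted one in edgeR. The smallest unadjusted P was 0.22 (Herc6) and the smallest adjusted p 0.987. In no member did the 3 treated mice lie entirely above or below the 3 untreated mice, against 15.8% of all genes that did so in either direction. The fitted level was lower in treated mice for 42 of 43 genes, against 53.7% of all genes tested, with a median log2 fold change of −0.40 and a range of −0.93 (Irf7) to 0.03 (Ifi27). That direction rested on untreated mouse 3, without which the median was 0.58 and all 43 genes were higher in treated mice. With any other mouse left out the median stayed below 0. It was −1.07 without treated mouse 3, with 0 genes higher, and −0.08 without treated mouse 1, with 11 higher. Without both HD mice numbered 3, a choice made after the data were seen, it was −0.08, with 15 genes higher in treated mice. With Y-linked counts as a covariate it was −0.80, with 0 higher. Among the mice without Y-linked counts, also chosen after the data were seen, it was −0.78, with 0 higher. The standard errors of the 43 differences ran from 0.24 to 0.93, with a median of 0.62 against 0.17 over all genes tested. For the 16 genes plotted by mouse, the log2 fold changes in treated against untreated mice were −0.42 (Ifit3), −0.68 (Ifit2), −0.49 (Oasl2), −0.63 (Oas2), −0.19 (Cmpk2), −0.36 (Bst2), −0.57 (Herc6), −0.48 (Uba7), −0.26 (Stat2), −0.25 (Irf9), −0.15 (Parp12), −0.33 (Parp14), 0.03 (Ifi27), −0.86 (Ifi27l2a), −0.33 (Lgals3bp) and −0.21 (Xaf1), with adjusted p-values of 0.987 or more.

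**Figure D4:**
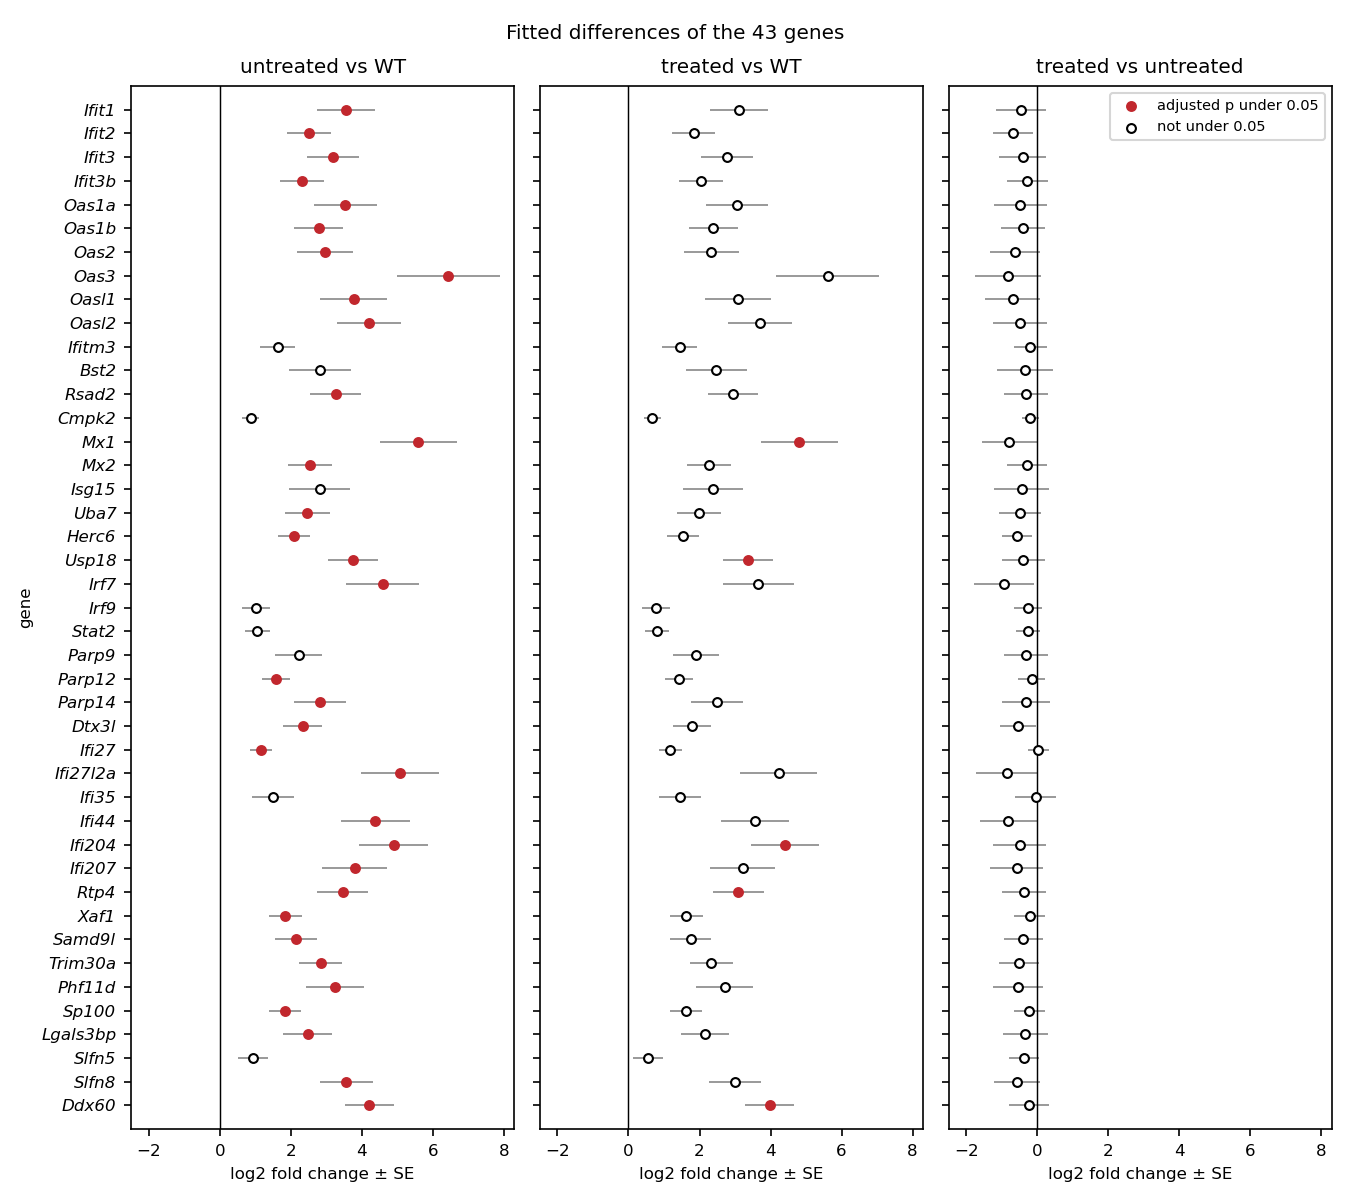
Log2 fold change ± SE of the 43 genes in the 3 comparisons, filled red where the adjusted p was under 0.05 (34, 5 and 0 genes). All points of the comparisons with WT are above 0, whereas those of treated against untreated mice lie within 0.93 of 0.

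The spread within the HD groups was itself large. The median over the 43 genes of the SD of log2 CPM was 0.34 for WT, 1.23 for untreated and 0.84 for treated mice, against 0.22, 0.16 and 0.12 over all genes tested. The 43 genes moved together between mice. Averaged over them, log2 CPM was above the WT mean by 1.62, 2.05 and 3.86 in untreated mice 1 to 3 and by 1.56, 1.88 and 3.25 in treated mice 1 to 3, which are factors of 3.07, 4.15, 14.5, 2.96, 3.67 and 9.52. The 43 genes took 0.0204%, 0.0230% and 0.0205% of all counts in WT mice, 0.0463%, 0.0620% and 0.189% in untreated mice and 0.0440%, 0.0537% and 0.132% in treated mice. Untreated mouse 3 had the highest value of the 9 libraries in 42 of 43 genes, against 17.3% of all genes tested, and treated mouse 3 had it in Ifi27. The 2 highest of the 6 HD mice were these 2 in all 43 genes, against 9.46% of all genes. At the low end, treated mouse 1 was the lowest HD mouse in 23 genes, untreated mouse 1 in 19 and treated mouse 2 in 1. A shared number does not mean a shared animal.

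The rest of the interferon pathway was taken from lists of 74 genes that are not among the 43. Of these, 53 passed the filter, 15 were higher and 1 was lower in untreated than in WT mice, and 4 were higher in treated mice with an adjusted p under 0.05, against 4.58% higher and 6.1% lower of all genes in untreated mice and 0.904% higher in treated mice. None differed between the HD groups in edgeR or DESeq2, and 2 of the 53 had an unadjusted P under 0.05, against 5.5% of all genes. The 20 ligands of types I and III were all below the filter. Of these, 16 had no count in any library, which allows up to 3 counts a library, and Ifnb1, Ifnk, Ifne and Ifnz had at most 3 counts in a library. Ifnb1 had 2 counts in untreated mouse 1, 2 in treated mouse 3 and none elsewhere. Ifng, the type II ligand made by T and NK cells, had no count in WT mice, 0, 4 and 20 counts in untreated mice 1 to 3 and 3, 2 and 3 counts in treated mice 1 to 3. It was also below the filter.

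Of 6 receptor chains only Ifngr2 passed the adjusted threshold, with log2 fold changes of 0.94 (SE 0.12, adjusted p = 0.00194) in untreated and 0.63 (SE 0.12, adjusted p = 0.0218) in treated mice. Ifnar1, the chain with the most counts, had 0.09 (SE 0.10, adjusted p = 0.608) and 0.04 (SE 0.10, adjusted p = 0.839). All 6 chains had higher fitted levels in both HD groups. Without overlap with WT, 2 were higher in untreated mice, against 15% of all genes, and 5 in treated mice, against 13.4%. Among 9 genes for kinases, Stat3 and interferon regulatory factors, Irf2 rose in untreated mice, with a log2 fold change of 0.51 (SE 0.14, adjusted p = 0.0439), and none passed in treated mice, where Irf2 had 0.21 (SE 0.14, adjusted p = 0.412). Jak1, a kinase that passes on the signal of the receptors and the gene of this list with the most counts, had 0.17 (SE 0.07, adjusted p = 0.128) and 0.02 (SE 0.07, adjusted p = 0.875). None of 10 negative regulators passed the adjusted threshold as higher. By an unadjusted P under 0.05 with at least a 2-fold rise 3 of them were higher in untreated mice, against 5.57% of all genes. In treated mice 2 of these, Socs1 and Ptpn6, were higher by this rule, against 3.84%. In untreated mice Socs1 had a log2 fold change of 2.41 (SE 0.83, adjusted p = 0.0934), Socs3 of 1.47 (SE 0.60, adjusted p = 0.139) and Ptpn6 of 1.64 (SE 0.54, adjusted p = 0.0796). Ptpn11, a phosphatase and the gene of this list with the most counts, fell in untreated mice, with a log2 fold change of −0.43 (SE 0.07, adjusted p = 0.00623), and had −0.26 (SE 0.07, adjusted p = 0.0686) in treated mice.

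The RNA-triggered effectors gave 3 of 4 genes higher in untreated mice, Eif2ak2 (PKR, the kinase that halts translation on double-stranded RNA), Zbp1 (a sensor of Z-form nucleic acid) and Zc3hav1 (the antiviral protein ZAP), with log2 fold changes of 1.79, 5.43 and 1.95. Zc3hav1 rose in treated mice as well, with 1.91 (SE 0.36, adjusted p = 0.0225). Adar, the editor of double-stranded RNA and the gene of this list with the most counts, had −0.18 (SE 0.08, adjusted p = 0.179) in untreated and −0.22 (SE 0.08, adjusted p = 0.152) in treated mice. Of 12 RNA and DNA sensors and adaptors, the RNA helicases Ddx58 (RIG-I) and Ifih1 (MDA5) rose in untreated mice, by 1.86 and 2.13, and Ifih1 in treated mice, by 1.93. Tbk1, the kinase with the most counts in this list, had 0.02 (SE 0.09, adjusted p = 0.909) in untreated and −0.11 (SE 0.09, adjusted p = 0.494) in treated mice. The interferon-gamma-induced GTPases were the list with the most members called, 8 of 12 in untreated mice and 1 of 12 (Gbp6) in treated mice, with medians of 3.78 and 3.27. Igtp, the GTPase of this list with the most counts, had 77, 100 and 81 counts in WT mice, 499, 1001 and 4998 in untreated mice and 519, 983 and 4199 in treated mice. Tgtp1 and Tgtp2 are near-identical copies, and their division of reads is uncertain.

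Markers of other cell types moved with the 43 genes in some lists, and their part in the result was not tested. The striatum was recognisable by its projection neuron markers, whose 8 summed genes had 5282 to 6971 CPM in WT, 1640 to 1951 in untreated and 2659 to 2694 in treated mice. All 8 fell in untreated and 7 in treated mice. For the marker counts here and below, the shares of all genes called in untreated mice were 4.58% higher and 6.1% lower. In treated mice they were 0.904% higher and 2.78% lower. Of the 8 T cell markers, 3 rose and 1 (Cd4) fell in untreated mice, and only Cd4 passed in treated mice, also lower. Their summed CPM was 64.3 to 81.6 in WT, 22.7 to 81.9 in untreated and 38.5 to 48.8 in treated mice, and in WT mice most of it was Cd4. The defining T cell genes Cd3g and Cd3d had no count in WT mice. Cd3g had 11, 34 and 333 counts in untreated and 27, 41 and 58 in treated mice. The 6 monocyte and macrophage markers (2 called higher in untreated mice, 1 in treated mice) summed to 7.91 to 9.54 CPM in WT, 15.96 to 138 in untreated and 31.8 to 60.8 in treated mice. Untreated mouse 3 was the highest library for both lists, and also for the summed microglia, neutrophil, astrocyte and endothelial markers given next.

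The 6 B cell and plasma cell markers (2 called higher in untreated mice, 3 in treated mice) summed to 0.918 to 1.44 CPM in WT, 8.42 to 100 in untreated and 59.1 to 122 in treated mice, and in HD mice most of it was Jchain. Here treated mouse 2 and not untreated mouse 3 was the highest, unlike in the 43 genes. The 8 microglia markers (none called in untreated mice, 1 called higher in treated mice) had 313 to 345 CPM in WT, 358 to 698 in untreated and 451 to 527 in treated mice, and all 8 had higher fitted levels in both HD groups. Of 5 neutrophil markers, Ly6g and Retnlg had no count in any library, and S100a8 and S100a9 had 8 counts or fewer in each. The list, carried by Csf3r, summed to 8.19 to 8.99 CPM in WT, 10.7 to 30.2 in untreated and 13.7 to 19.2 in treated mice, and none of it was called. The 5 astrocyte markers (none called) had 796 to 879 CPM in WT, 909 to 1387 in untreated and 937 to 1262 in treated mice. The 4 endothelial markers (1 called higher in each HD group) had 93.8 to 114 CPM in WT, 132 to 166 in untreated and 141 to 152 in treated mice. The 4 oligodendrocyte markers (1 called lower in untreated mice) had 6986 to 7685, 5427 to 5972 and 5795 to 8751 CPM in the same groups. The 5 choroid plexus markers (1 called lower in untreated mice) spread over 64.5 to 3739 CPM within the WT group alone, 33.9 to 183 in untreated and 37.6 to 1258 in treated mice. Of the HD mice they were highest in treated mouse 3 and lowest in untreated mouse 3, the highest mouse in 42 of the 43 genes. Within the WT group they were highest in mouse 2. Some of the 43 genes, among them Bst2, Irf9 and Lgals3bp, were also highest there, and others such as Xaf1 were not.

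**Figure D5:**
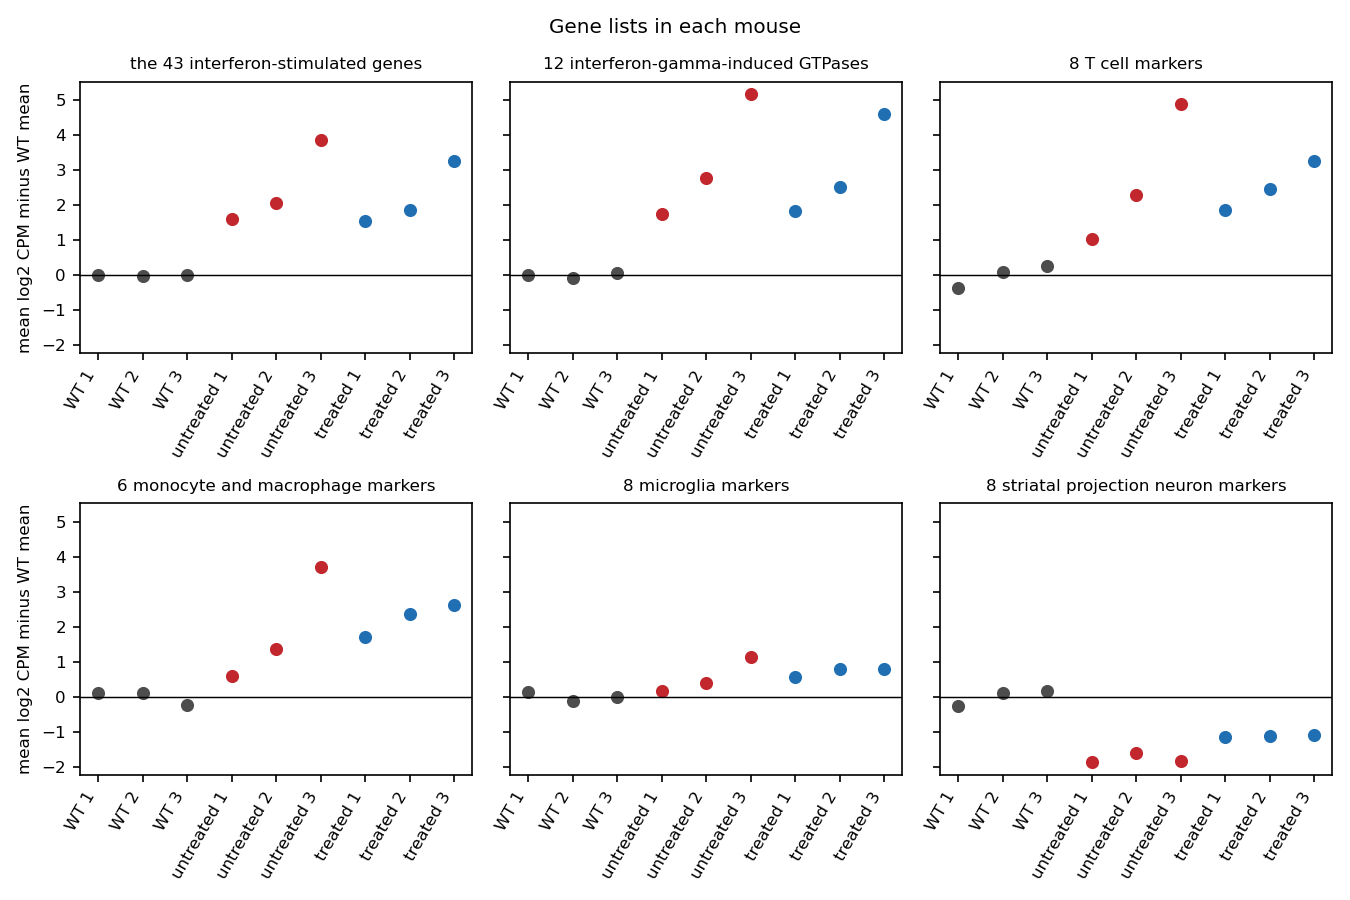
Mean log2 CPM over the genes of a list, as the difference from the WT mean, in each of the 9 mice for the 43 interferon-stimulated genes, the interferon-gamma-induced GTPases and 4 lists of cell type markers. The 43 genes reach 3.86 in untreated 3 and 3.25 in treated 3, and the GTPases and the T cell, monocyte and microglia lists also have their highest point in untreated 3.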

How the data were processed

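RNA of the striatum of 9 mice was primed with oligo-dT and sequenced from the 3′ end. The authors deposited raw counts per Ensembl gene, whole numbers without normalization. The methods of the study name STAR as the aligner, whereas the submitters' processing notes list Trimmomatic 0.39, FastQC 0.11.9, HISAT2 2.2.1 and featureCounts 2.0.1 with a pig build for all samples. The mouse build is not given in the sources used here, so counted genes have a chromosome and no position. Names were found for 94.1% of the gene IDs, which hold 99.8% of the counts. Each mouse is 1 library, and total counts were 27184356 to 32102121. The pig counts were not used here.

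The 43 genes, their 8 role lists, the pathway lists and the cell type markers were chosen with earlier results of these data known. Genes with full statistics are the 2 with the highest mean CPM in each role list. Where others are given with values, they were picked after their values were seen. Of the pathway lists, the gene with the most counts is named, and so is each gene called, except the GTPases called in untreated mice. Those GTPases and most of the called markers are given by their number only. The pathway lists are not complete, and 2 genes are not reported here.

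Counts were fitted in R 4.3.3 with edgeR 4.0.16. Genes were kept by filterByExpr, libraries were scaled by TMM, and all 9 were fitted with glmQLFit and tested with glmQLFTest, as the study also used edgeR. The SE is the size of the log2 fold change over the root of its quasi-likelihood F. CPM values use TMM library sizes, and log2 CPM a prior count of 2. Adjusted p-values are Benjamini-Hochberg values over 19463 genes, and a call is an adjusted p under 0.05. The alternatives were RLE factors, total counts only, DESeq2 1.42.0, other filters, other DEG rules (the study states 2), a fit of the 2 groups alone, a block on replicate number, a Y-linked covariate and each mouse left out. Data were simulated for untreated against WT mice, with 200 changed genes among 19463. Of these, 65% of the 2-fold and 89% of the 4-fold changes were called, and 4.94% of the calls were false. In the real data for the same comparison, the median SE was 0.70 for the interferon-stimulated antiviral genes and 0.17 over all genes tested. The simulated rates were therefore not taken to hold for the interferon-stimulated antiviral genes.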

Additional observations from a re-analysis of the deposited data

How the results depend on the processing

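Against WT, the direction of the 43 genes together (median log2 fold change) held in both HD groups under every alternative run, from 1.38 to 3.22 in untreated and from 0.68 to 2.65 in treated mice, whereas the counts of called genes did not. Untreated mice gave 34 called genes, and 13 with no filter on low counts, 18 in a fit of only the 2 groups compared, 0 with Y-linked counts as a covariate and 0 among mice with Y-linked counts, a subset chosen after seeing the data that holds 1 HD mouse and in which 0 of all 19760 genes were called. Treated mice gave 5, and 31 in DESeq2, 33 in a fit of only the 2 groups, 1 with no filter, 0 with the Y-linked covariate, 39 by unadjusted P under 0.05 and at least 2-fold, 29 by unadjusted P under 0.01 and over 2-fold, and 29 without both HD mice numbered 3, also chosen after seeing the data. With 1 mouse left out in turn the counts ran from 1 to 37 in untreated and from 0 to 37 in treated mice. The count was 0 between the HD groups under every alternative. By an unadjusted P under 0.05 it was 12 without treated mouse 3, against 3.64% of all genes, and 3 without both HD mice numbered 3, against 3.91%. It was 2 without untreated mouse 3, against 6.13%, 1 with a block on replicate number, against 5.99%, and 0 in the other fits. The share of all genes called higher against WT moved as well. In untreated mice it was 4.58%, with 0.922% without the filter, 1.01% in the fit of 2 groups and 0.17% with the Y-linked covariate. In treated mice it was 0.904%, with 4.44% in DESeq2, 2.78% in the fit of 2 groups and 0.173% without the filter. Without both HD mice numbered 3 the share in treated mice was 1.5%. The cause of these moves was not tested.

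The other pathway genes, whose alternatives were added after seeing the data, gave 16 called in untreated mice, and 29 in DESeq2, 5 with no filter, 1 with the Y-linked covariate, 0 among mice with Y-linked counts, 25 by unadjusted P under 0.05 and at least 2-fold, and 2 to 23 with 1 mouse left out. In treated mice they gave 4, and 19 in DESeq2 and in a fit of only the 2 groups, 2 with no filter, 0 with the Y-linked covariate, 22 and 13 by the unadjusted P rules of 0.05 and 0.01, 13 without both HD mice numbered 3, and 0 to 20 with 1 mouse left out. Of all genes, 10.7% were called in either direction in untreated mice, with 17.8% in DESeq2 and 3.1% without the filter. The shares in treated mice were 3.69%, with 10% in DESeq2, 5.54% in the fit of 2 groups and 1.03% without the filter. By the unadjusted P rule of 0.05 with at least a 2-fold rise, 5.57% of all genes were higher in untreated and 3.84% in treated mice. For the rule of 0.01 the share of all genes was not counted.

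A block on the replicate number called 38 of the 43 genes in untreated and 29 in treated mice against WT, 13 other pathway genes in treated mice, and none of either between the HD groups. Of all genes, that fit called 5.05% higher in untreated and 1.55% higher in treated mice against WT. Same-numbered treated and untreated mice had deviations from their group means that correlated at 0.19, 0.00 and 0.24 across genes, so the numbers were not taken to pair the mice. Mouse 2 of these groups did not correlate best with its own number.

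Between treated and untreated mice, the median over the 43 genes ran from −1.07 to 0.58 with 1 mouse left out, and the log2 fold changes of the 16 genes plotted by mouse from −1.48 to 0.60 (Ifit3), −1.33 to 0.33 (Ifit2), −1.75 to 0.61 (Oasl2), −1.40 to 0.71 (Oas2), −0.50 to 0.028 (Cmpk2), −1.30 to 0.92 (Bst2), −0.97 to 0.13 (Herc6), −1.06 to 0.56 (Uba7), −0.65 to 0.22 (Stat2), −0.71 to 0.29 (Irf9), −0.55 to 0.39 (Parp12), −0.99 to 0.99 (Parp14), −0.28 to 0.32 (Ifi27), −2.16 to 0.58 (Ifi27l2a), −1.02 to 0.71 (Lgals3bp) and −0.53 to 0.47 (Xaf1). With the Y-linked covariate Ifi27 stood at −0.11 between the HD groups, and Stat2 and Irf9 at −0.023 and −0.21 in treated against WT mice. These Stat2 and Irf9 values depend on untreated mouse 1, the only link of treated mice to WT in that fit.

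Of the 43 genes, 34 had at least 10 counts in every library. The other 9 (Oas1a, Oas3, Oasl1, Mx1, Ifi27l2a, Ifi44, Ifi204, Ifi207 and Ddx60) had fewer than 10 in at least 1 WT library. What set the standard errors was not tested.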
